A study of Rattus norvegicus with 10 samples.

Results

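The genes of the voltage-gated calcium and sodium channels, together with the ryanodine and IP3 receptor genes of the intracellular calcium stores, were followed in the CA1 region of rat hippocampal slices. The rule was the gene name, but these families were taken up with earlier results of these data known. Of the 32545 genes in the count table, 37 carried such a name. These were 10 genes of calcium channel α1 subunits (Cacna1), 4 of α2δ subunits (Cacna2d), 4 of β subunits (Cacnb), 10 of sodium channel α subunits (Scn, ending in a), 4 of sodium channel β subunits (Scn, ending in b), 3 ryanodine receptors and 2 IP3 receptors. Itpr2 was not analysed here.

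A calcium channel is built around an α1 subunit, which forms the pore and senses the voltage, while the β subunit in the cytoplasm and the α2δ subunit on the outer face help to bring the pore to the membrane and set how readily it opens. Sodium channel α subunits carry the action potential, and their β subunits adjust its kinetics and anchor the channel. Ryanodine and IP3 receptors release calcium from the endoplasmic reticulum, the former after calcium entry and the latter after IP3 is made at the membrane. In CA1 pyramidal cells, calcium from these sources is known to act on kinases and on gene transcription during synaptic plasticity.

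RNA-seq libraries came from slices of adult male Wistar rats, with 5 groups of 2 libraries each. SKF is an agonist of the dopamine D1/D5 receptors, and slices of the SKF group had it alone. The SKF+Aβ group also had oligomers of the amyloid-β peptide, and SKF+Aβ+CSP had in addition the empty glucose-derived carbon nanosphere. In SKF+Aβ+CSP‐TTK21, that nanosphere carried TTK21, which activates CBP and p300, a pair of histone acetyltransferases. CSP‐TTK21 alone had neither SKF nor Aβ, so it differs from SKF both by the absence of the agonist and by the loaded particle. Untreated slices were not analysed here, and no slice without any agent served as reference. By the study's methods, slices of 2 biological samples went into each library, all groups were kept in the recording set-up before CA1 was dissected, and the exposure to Aβ was acute. Thus p-values rest on the spread between such pooled libraries, estimated over all 10 libraries together.

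Libraries held between 6753742 and 8473407 counts, of which the channel genes took between 0.661% and 0.901%. Levels are given as CPM, the counts of a gene scaled to a fixed total per library, after TMM scaling, which corrects each total for differences in composition. They depend on gene length, so they were compared between libraries and not between genes. The share of counts from mitochondrial genes was 3.58% and 5.52% in the SKF libraries and between 5.88% and 7.71% in the other 8 libraries. Neuronal markers were present in every library, with a summed level between 8652 and 10848 CPM. Of the CA1 markers, Wfs1 and Mpped1 were detected, Fibcd1 was at 0 in all libraries and Spink8 did not exceed 0.422 CPM. Wfs1 differed within groups, with 372 and 113 CPM for SKF+Aβ, 339 and 111 for SKF+Aβ+CSP‐TTK21 and 98.1 to 231 in the other 6 libraries. As these are bulk samples, fewer cells of a type and less RNA per cell cannot be told apart.

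Among the channel genes, 33 passed the filter on low counts and were tested together with all genes that did, 15032 in total. Those that failed were Cacna1f with 1 to 9 counts per library, Cacna1s with 0 to 7, Scn10a with 0 to 3 and Scn11a with 0 to 4. Cacna1f and Cacna1s are the pores of retina and skeletal muscle, and Scn10a and Scn11a are known from sensory neurons. The counts of these 4 genes were too low to be compared at this depth.

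Across the 5 groups, no channel gene passed an adjusted p of 0.05 in edgeR's quasi-likelihood test, and 1 of all 15032 genes did (0.00665%). At an unadjusted p under 0.05 there were 8 of 33, namely Cacnb2, Cacna2d1, Ryr1, Cacna1d, Ryr2, Scn4b, Ryr3 and Scn3b, against 14.3% of all genes. With DESeq2, 3 of the 27 channel genes to which it gave an adjusted p passed, against 4.89% of all such genes. The plot of the members by library shows where these differences lie.

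**Figure D1:**
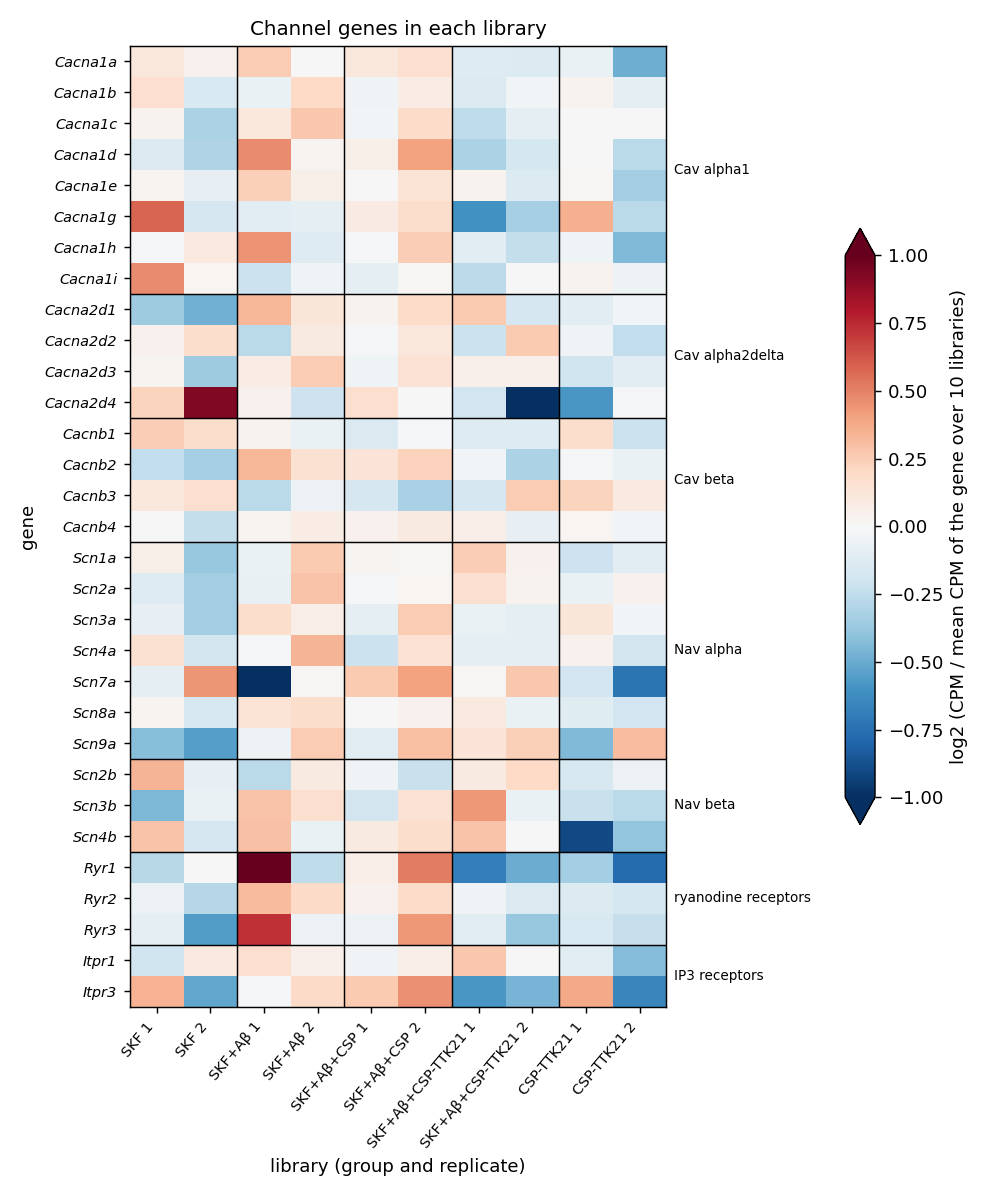
Level of 31 of the 33 tested channel genes in each of the 10 libraries, as the log2 of CPM over the mean CPM of that gene, with genes on the vertical axis in order of role and libraries on the horizontal axis. Red is above and blue below the mean of the gene, and colours are cut at 1 in either direction. Over all 33 tested genes, SKF+Aβ replicate 1 was the highest library for 10 and SKF replicate 2 the lowest for 13.

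Libraries differed in how often they held the highest or lowest value. SKF+Aβ replicate 1 was highest for 10 of the 33 genes, against 13.4% of all genes tested, and SKF+Aβ replicate 2 for 7, against 9.0%. The lowest value was in SKF replicate 2 for 13 genes, against 11.6% of all genes, and in CSP‐TTK21 alone replicate 2 for 9, against 8.04%. These shares describe single libraries and were not tested.

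The comparison of SKF+Aβ with SKF asks what Aβ oligomers changed in slices given the dopamine agonist. Cacna2d1 rose, and it was the 1 channel gene called at an adjusted p under 0.05, against 2.08% of all genes tested (1.22% higher and 0.852% lower). A further 10 genes reached an unadjusted p under 0.05 without passing the adjusted threshold, which makes 11 of 33 against 22.8% of all genes. Of the 11, 10 had the higher mean in SKF+Aβ (12% of all genes) and 1, Cacna1i, had the lower (10.9%). The median log2 fold change was 0.16 over the 33 channel genes and -0.00 over all genes. DESeq2 called 4 of 27, namely Cacna2d1, Cacnb2, Ryr2 and Ryr3, against 8.93% of the genes to which it gave an adjusted p. By edgeR, no channel gene passed the adjusted threshold with a log2 fold change past 1.5 as well, the limit in the study's methods, and 0.146% of all genes did.

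Cacna2d1 encodes the α2δ subunit that is bound by gabapentin and that also takes part in synapse formation. It had 217 and 199 CPM with SKF, 349 and 302 with SKF+Aβ, 285 and 314 with SKF+Aβ+CSP, 332 and 247 with SKF+Aβ+CSP‐TTK21 and 256 and 272 with CSP‐TTK21 alone. Both SKF libraries were below the other 8 libraries, as was the case for 9.58% of all genes. Against SKF, its log2 fold change was 0.65 (95% confidence interval 0.32 to 0.97, adjusted p = 0.0467) in SKF+Aβ by edgeR's quasi-likelihood test. The call depended on single libraries. It was lost without either SKF library, either SKF+Aβ library, either SKF+Aβ+CSP library or either library of CSP‐TTK21 alone, with the adjusted p at its highest, 0.203, without SKF+Aβ replicate 1, where the fold change was 0.52. It was also lost with only the 4 libraries compared, where the adjusted p was 0.100. For the other groups against SKF, the fold change of Cacna2d1 was 0.53 (SE 0.15, adjusted p = 0.102) in SKF+Aβ+CSP, 0.48 (SE 0.15, adjusted p = 0.137) in SKF+Aβ+CSP‐TTK21, or 0.25 without SKF+Aβ+CSP‐TTK21 replicate 1, and 0.34 (SE 0.15, adjusted p = 0.633) in CSP‐TTK21 alone, none of which passed. These 4 comparisons share the SKF libraries. With the loaded particle, the libraries of Cacna2d1 overlapped those of SKF+Aβ.

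By edgeR, the other α2δ genes were not called in any of the 7 comparisons. Cacna2d3 ranged from 165 to 253 CPM, and its 2 SKF+Aβ libraries lay above both SKF libraries. Cacna2d2 ranged from 23.0 to 33.2 CPM. Cacna2d4 had 5 to 27 counts per library, from 0.713 to 3.60 CPM, with both SKF libraries above the other 8 (7.48% of all genes).

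Among the calcium channel β subunits, Cacnb2 differed most and Cacnb3 lay in the other direction. The product of Cacnb2 is the partner of L-type pores in heart and brain. Cacnb2 had 69.3 and 65.4 CPM with SKF, 104 and 91.4 with SKF+Aβ, 90.1 and 96.7 with SKF+Aβ+CSP, 80.7 and 66.2 with SKF+Aβ+CSP‐TTK21 and 81 and 78.7 with CSP‐TTK21 alone. Its SKF libraries were below those of SKF+Aβ (25.2% of all genes), SKF+Aβ+CSP (27.1%) and CSP‐TTK21 alone (18.8%). SKF+Aβ+CSP‐TTK21 replicate 2 lay between the SKF libraries. The log2 fold change was 0.53 (95% confidence interval 0.23 to 0.83, adjusted p = 0.0606) for SKF+Aβ against SKF and 0.47 (SE 0.14, adjusted p = 0.109) for SKF+Aβ+CSP against SKF, and neither passed in edgeR's test. DESeq2 gave an adjusted p of 0.0243 for the former.

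Cacnb3, which encodes another neuronal β subunit, had 116 and 121 CPM with SKF, 89.4 and 103 with SKF+Aβ, 96.2 and 86 with SKF+Aβ+CSP, 96.1 and 128 with SKF+Aβ+CSP‐TTK21 and 126 and 115 with CSP‐TTK21 alone. Both SKF libraries were above SKF+Aβ and SKF+Aβ+CSP, and the highest library was SKF+Aβ+CSP‐TTK21 replicate 2. Its fold change for SKF+Aβ+CSP against SKF was -0.38 (SE 0.15, adjusted p = 0.2). Cacnb1, the β subunit known from skeletal muscle and also made in brain, had 147 and 139.9 CPM with SKF, 127 and 118 with SKF+Aβ, 112 and 122 with SKF+Aβ+CSP, 114 and 113 with SKF+Aβ+CSP‐TTK21 and 140.1 and 107 with CSP‐TTK21 alone. In SKF+Aβ, SKF+Aβ+CSP and SKF+Aβ+CSP‐TTK21, both libraries of Cacnb1 were below both of SKF. For SKF+Aβ+CSP‐TTK21 the fold change was -0.34 (SE 0.14, adjusted p = 0.21). Cacnb4 stayed between 91.4 and 115 CPM in all libraries.

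Promoter sequences are shown for Cacna2d1, the gene that edgeR called, for Cacnb2, the member with the lowest p across the groups, and for Scn2a, whose SKF libraries were likewise the lowest of all. CBP and p300 are known to be recruited by CREB, a factor that binds the cAMP response element TGACGTCA or its shorter form TGACG, and GGGCGG is the GC box. RefSeq on build GRCr8 gave a start for 27 of the 37 genes, with 31 windows in all. GRCr8 is not among the builds named for the counts, and counts per gene cannot tell the starts of a gene apart. Each window below covers the 250 bases before a start, 5′ to 3′ on the strand of the gene, with capitals for TGACG and GGGCGG on either strand, overlaps allowed.
Cacna2d1 (chr4:20330148-20330397, minus strand): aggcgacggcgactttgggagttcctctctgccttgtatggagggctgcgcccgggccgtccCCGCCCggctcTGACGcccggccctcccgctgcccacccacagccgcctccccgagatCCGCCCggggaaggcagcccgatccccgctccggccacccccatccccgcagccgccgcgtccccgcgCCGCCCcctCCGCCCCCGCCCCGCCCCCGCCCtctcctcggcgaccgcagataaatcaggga
Cacnb2, first start (chr17:82472965-82473214, plus strand): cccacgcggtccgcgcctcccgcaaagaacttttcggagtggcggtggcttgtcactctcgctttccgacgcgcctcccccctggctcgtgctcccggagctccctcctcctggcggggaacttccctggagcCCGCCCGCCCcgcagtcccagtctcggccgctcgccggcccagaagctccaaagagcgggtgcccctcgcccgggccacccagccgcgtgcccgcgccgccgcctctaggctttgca
Cacnb2, second start (chr17:82596542-82596791, plus strand): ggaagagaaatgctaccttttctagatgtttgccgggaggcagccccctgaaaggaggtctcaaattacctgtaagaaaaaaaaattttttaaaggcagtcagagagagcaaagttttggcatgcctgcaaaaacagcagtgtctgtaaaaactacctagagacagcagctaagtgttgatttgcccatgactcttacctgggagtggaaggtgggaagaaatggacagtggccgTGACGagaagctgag
Scn2a (chr3:70710706-70710955, plus strand): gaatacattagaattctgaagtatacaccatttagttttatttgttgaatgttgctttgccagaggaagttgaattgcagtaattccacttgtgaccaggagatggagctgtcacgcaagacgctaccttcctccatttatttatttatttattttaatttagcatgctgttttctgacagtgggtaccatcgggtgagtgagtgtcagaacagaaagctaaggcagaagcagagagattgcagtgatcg

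The Cacna2d1 window, the outermost of 3 listed for that gene, held 1 TGACG and 7 GC boxes, while each of the other 2, which overlap each other, held 3 GC boxes and 0 TGACG. The first Cacnb2 window had 2 GC boxes, and its second, TGACG alone, 15 bases before the start. The Scn2a window held neither motif. GC content was 77.2% for Cacna2d1, 73.2% and 45.6% for the Cacnb2 windows and 39.6% for Scn2a. Over the 31 windows of channel genes, the complete TGACGTCA was found in 0 and in 1.59% of all 33469 promoters. TGACG, which the complete element contains, was in 5 windows (16.1%) against 18.2% of all promoters, and the GC box in 18 (58.1%) against 30.5%. A match describes letters and is not evidence of binding.

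The pore-forming calcium channel genes gave no call in any comparison by edgeR's test, while DESeq2 called Cacna1g in SKF+Aβ+CSP‐TTK21 against SKF. Their summed level was 2027 and 1768 CPM with SKF, 2153 and 1964 with SKF+Aβ, 1900.5 and 2110.5 with SKF+Aβ+CSP, 1733 and 1720.3 with SKF+Aβ+CSP‐TTK21 and 1901 and 1553 with CSP‐TTK21 alone. Most of the 8 tested genes had a lower mean in SKF+Aβ+CSP‐TTK21 than in SKF+Aβ (7 of 8, against 48.1% of all genes) or SKF+Aβ+CSP (8 of 8, against 48.9%). Against SKF, SKF+Aβ gave a higher mean for 6 (49.8% of all genes) and a lower mean for 2 (50.1%).

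Cacna1d, an L-type pore that opens at low voltages, had 137 and 122 CPM with SKF, 209.5 and 154 with SKF+Aβ, 157 and 199.6 with SKF+Aβ+CSP, 121 and 134 with SKF+Aβ+CSP‐TTK21 and 151 and 126 with CSP‐TTK21 alone. Both SKF+Aβ libraries and both SKF+Aβ+CSP libraries were above the 2 of SKF and the 2 of SKF+Aβ+CSP‐TTK21. Its log2 fold change was 0.49 (SE 0.17, adjusted p = 0.116) for SKF+Aβ against SKF, and 0.23 without SKF+Aβ replicate 1. For SKF+Aβ+CSP against SKF it was 0.46 (SE 0.17, adjusted p = 0.175), and 0.27 without SKF+Aβ+CSP replicate 2. For SKF+Aβ+CSP‐TTK21 the fold change was -0.52 (SE 0.17, adjusted p = 0.746) against SKF+Aβ, or -0.28 without SKF+Aβ replicate 1. Against SKF+Aβ+CSP it was -0.49 (SE 0.17, adjusted p = 0.556), and -0.31 without SKF+Aβ+CSP replicate 2. The size of each difference thus depended on 1 of the libraries, and none passed in edgeR's test. Cacna1c, the other neuronal L-type pore, ranged from 152 to 228 CPM.

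Cacna1g, a T-type pore that opens near the resting voltage, had 139 and 82.9 CPM with SKF, 86.2 and 87.6 with SKF+Aβ, 98.7 and 105 with SKF+Aβ+CSP, 61.1 and 74.1 with SKF+Aβ+CSP‐TTK21 and 119 and 77.3 with CSP‐TTK21 alone. The 2 SKF+Aβ+CSP‐TTK21 libraries were the lowest of the 10, as they were for 3.44% of all genes. Its fold change was -0.72 (SE 0.23, adjusted p = 0.143) against SKF and -0.59 (SE 0.23, adjusted p = 0.556) against SKF+Aβ+CSP. DESeq2 gave an adjusted p of 0.0474 for the former. Without SKF replicate 1, the library with the highest value, it was -0.31. The other T-type pores, Cacna1h and Cacna1i, ranged from 92.1 to 171 and from 96.1 to 159.7 CPM.

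Of the pores that serve transmitter release, Cacna1a, the P/Q-type pore, had 341 and 325 CPM with SKF, 377 and 315 with SKF+Aβ, 342 and 355 with SKF+Aβ+CSP, 289 and 287 with SKF+Aβ+CSP‐TTK21 and 301 and 225 with CSP‐TTK21 alone. CSP‐TTK21 alone was below SKF in both libraries, as was SKF+Aβ+CSP‐TTK21. For CSP‐TTK21 alone the fold change was -0.34 (SE 0.15, adjusted p = 0.633), or -0.15 without its replicate 2 and -0.58 without its replicate 1. The R-type pore Cacna1e had 706 and 653 CPM with SKF, 815 and 722 with SKF+Aβ, 689 and 759.6 with SKF+Aβ+CSP, 708 and 629.6 with SKF+Aβ+CSP‐TTK21 and 697 and 544 with CSP‐TTK21 alone. The highest value was in SKF+Aβ replicate 1 and the lowest in CSP‐TTK21 alone replicate 2, and no comparison gave Cacna1e an unadjusted p under 0.05. Cacna1b, the N-type pore, varied little, from 182 to 231 CPM.

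**Figure D2:**
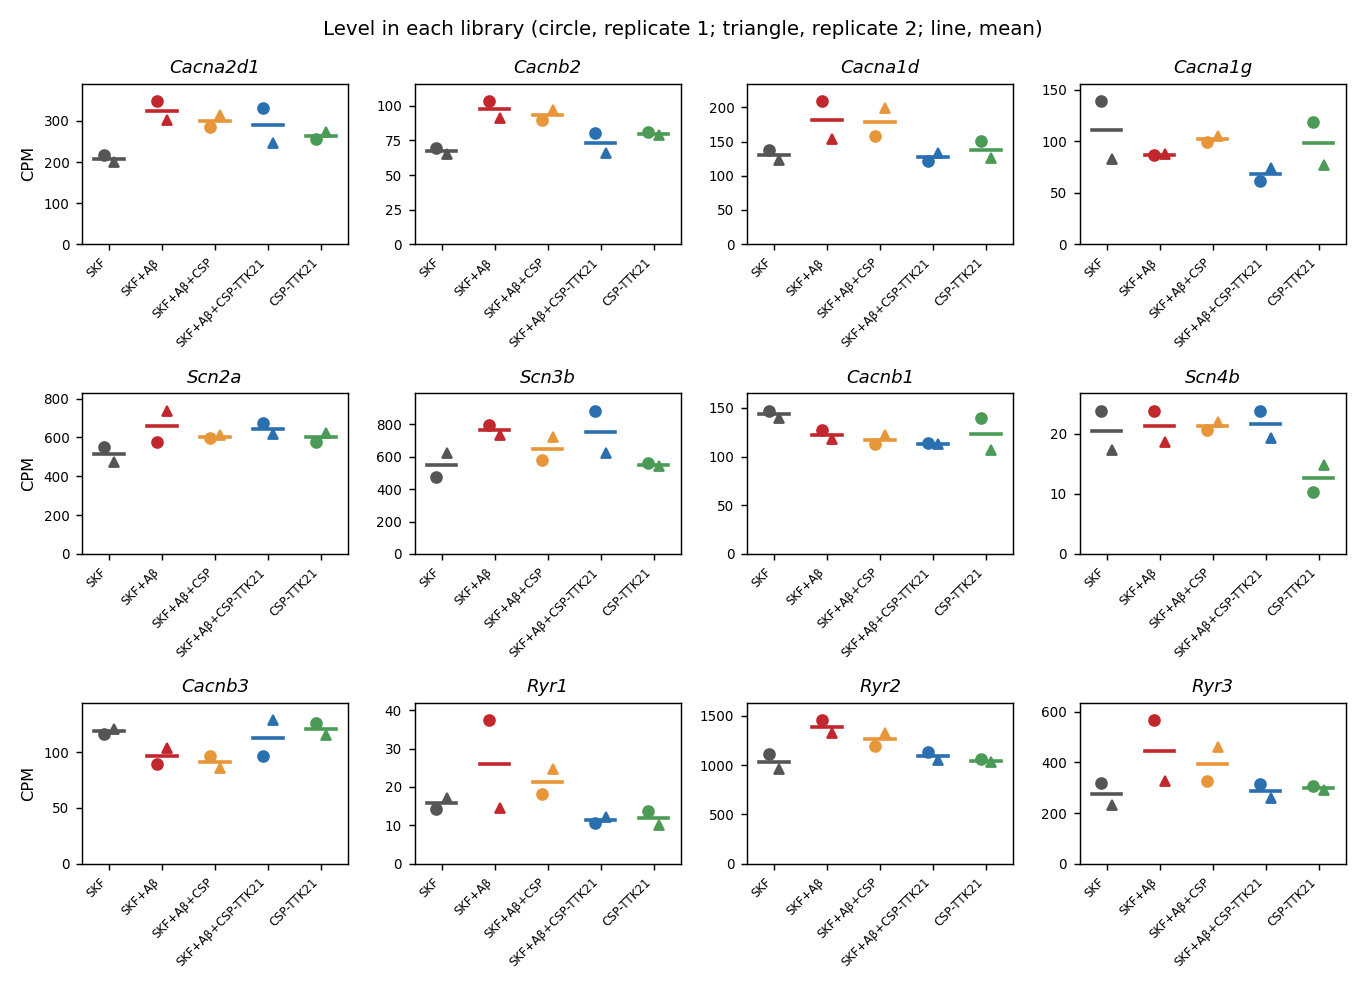
Levels of 12 channel genes in CPM (vertical axes, starting at 0) in the 5 groups (horizontal axes), with a circle for replicate 1, a triangle for replicate 2 and a line for their mean. Both SKF libraries are the lowest for Cacna2d1 and Scn2a, 2 of the 33 tested genes (6.06%, against 9.58% of all genes). Ryr1 in SKF+Aβ has 37.3 CPM in one library and 14.5 in the other.

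Sodium channel α subunits gave no call in any comparison by edgeR's test. Scn2a, which carries the action potential in the axons of excitatory neurons, had 553 and 476 CPM with SKF, 576 and 738 with SKF+Aβ, 598 and 612 with SKF+Aβ+CSP, 674 and 618 with SKF+Aβ+CSP‐TTK21 and 578 and 624 with CSP‐TTK21 alone. The 2 SKF libraries were the lowest of the 10, as they were for 9.58% of all genes. Its log2 fold change against SKF was 0.35 (SE 0.14, adjusted p = 0.162) in SKF+Aβ, or 0.14 without SKF+Aβ replicate 2, and 0.33 (SE 0.14, adjusted p = 0.225) in SKF+Aβ+CSP‐TTK21. Scn8a, the other main α subunit of these axons, ranged from 479 to 620 CPM, and its SKF+Aβ libraries were the 2 highest of all, as for 1.72% of all genes. Scn1a, the main α subunit of many interneurons, lay between 66.6 and 104 CPM, and Scn3a, known from the developing brain, between 84.1 and 128 CPM. Scn9a, known from sensory neurons, ranged from 4.94 to 8.96 CPM. Scn4a, the subunit of skeletal muscle, and Scn7a, which responds to sodium concentration, stayed below 5.37 CPM, and their values rest on 6 to 36 counts per library. On the RefSeq map, Scn3a lies next to Scn2a and Scn9a between Scn1a and Scn7a, so that these members are also neighbours.

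Of the 4 sodium channel β subunits, 2 had the higher and 2 the lower mean in SKF+Aβ against SKF (49.8% and 50.1% of all genes). All 4 had the lower mean in CSP‐TTK21 alone against SKF (49.6%). All 4 had the higher mean in SKF+Aβ+CSP‐TTK21 against SKF+Aβ+CSP (51.1%). None was called by edgeR in any comparison. Scn3b had 477 and 624 CPM with SKF, 795 and 731 with SKF+Aβ, 576 and 721 with SKF+Aβ+CSP, 883 and 623 with SKF+Aβ+CSP‐TTK21 and 558 and 541 with CSP‐TTK21 alone. Both SKF+Aβ libraries were above both SKF libraries, while SKF+Aβ+CSP‐TTK21 had the highest value and 1 close to that of SKF replicate 2. Its fold change against SKF was 0.47 (SE 0.18, adjusted p = 0.142) in SKF+Aβ and 0.45 (SE 0.18, adjusted p = 0.196) in SKF+Aβ+CSP‐TTK21, and these were 0.27 and 0.26 without SKF replicate 1. For the latter, leaving out SKF+Aβ+CSP‐TTK21 replicate 1 gave 0.18.

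Scn4b, the subunit linked to resurgent sodium current, had 23.8 and 17.4 CPM with SKF, 23.9 and 18.6 with SKF+Aβ, 20.7 and 22 with SKF+Aβ+CSP, 23.8 and 19.4 with SKF+Aβ+CSP‐TTK21 and 10.4 and 14.8 with CSP‐TTK21 alone. In CSP‐TTK21 alone both libraries were below the other 8, as they were for 0.838% of all genes. The fold change against SKF was -0.70 (95% confidence interval -1.19 to -0.21, adjusted p = 0.633), and -0.46 without SKF replicate 1. Scn2b, which lies beside Scn4b on the RefSeq map, ranged from 95 to 145 CPM.

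The ryanodine receptor genes had their highest summed level in SKF+Aβ replicate 1, and edgeR called none of them, while DESeq2 called Ryr2 and Ryr3 in SKF+Aβ against SKF. The sum was 1448 and 1203 CPM with SKF, 2053 and 1667 with SKF+Aβ, 1541 and 1805 with SKF+Aβ+CSP, 1458 and 1325 with SKF+Aβ+CSP‐TTK21 and 1379 and 1329 with CSP‐TTK21 alone. Ryr2, the receptor of heart muscle and the main one of hippocampal neurons, had 1114 and 955 CPM with SKF, 1451 and 1325 with SKF+Aβ, 1197 and 1322 with SKF+Aβ+CSP, 1133 and 1052 with SKF+Aβ+CSP‐TTK21 and 1059 and 1029 with CSP‐TTK21 alone. Its SKF+Aβ libraries were the 2 highest of the 10, with SKF+Aβ+CSP replicate 2 just below them. The log2 fold change was 0.42 (95% confidence interval 0.15 to 0.70, adjusted p = 0.0857) for SKF+Aβ against SKF and 0.28 (SE 0.13, adjusted p = 0.251) for SKF+Aβ+CSP against SKF, the latter 0.18 without SKF replicate 2. For SKF+Aβ+CSP‐TTK21 against SKF+Aβ it was -0.35 (SE 0.13, adjusted p = 0.746). With DESeq2, the adjusted p for SKF+Aβ against SKF was 0.0239.

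Ryr3, the brain isoform that is also made in smooth muscle, had 319 and 231 CPM with SKF, 565 and 327 with SKF+Aβ, 326 and 459 with SKF+Aβ+CSP, 314 and 261 with SKF+Aβ+CSP‐TTK21 and 306 and 289.8 with CSP‐TTK21 alone. SKF+Aβ replicate 1 and SKF+Aβ+CSP replicate 2 stood above the other libraries, whereas their partners in both groups were close to SKF replicate 1. Its fold change was 0.70 (SE 0.24, adjusted p = 0.11) for SKF+Aβ against SKF and -0.63 (SE 0.24, adjusted p = 0.746) for SKF+Aβ+CSP‐TTK21 against SKF+Aβ. DESeq2 gave an adjusted p of 0.0318 for SKF+Aβ against SKF. Without SKF+Aβ replicate 1 the fold changes were 0.23 and -0.18. For SKF+Aβ+CSP against SKF it was 0.51 (SE 0.24, adjusted p = 0.254), or 0.23 without SKF+Aβ+CSP replicate 2.

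Ryr1, the receptor of skeletal muscle, had 14.2 and 17.2 CPM with SKF, 37.3 and 14.5 with SKF+Aβ, 18.1 and 24.6 with SKF+Aβ+CSP, 10.7 and 12.3 with SKF+Aβ+CSP‐TTK21 and 13.6 and 10.2 with CSP‐TTK21 alone, from 76 to 267 counts per library. The SKF+Aβ libraries differed by more than the means of any groups. SKF+Aβ replicate 1 also had the highest Wfs1 of all libraries, 372 CPM, while SKF+Aβ+CSP‐TTK21 replicate 1 had 339 CPM of Wfs1 and 10.7 of Ryr1. The part of Wfs1 was not tested. In SKF+Aβ+CSP‐TTK21 both libraries of Ryr1 were below those of SKF, SKF+Aβ and SKF+Aβ+CSP. The fold change was -1.18 (95% confidence interval -1.92 to -0.43, adjusted p = 0.746) against SKF+Aβ, but -0.33 without SKF+Aβ replicate 1. Against SKF+Aβ+CSP, whose libraries lay closer together, it was -0.89 (95% confidence interval -1.64 to -0.14, adjusted p = 0.556).

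IP3 receptors gave no call by edgeR's test. Itpr1, the main IP3 receptor of neurons, had 802 and 985 CPM with SKF, 1034 and 949.7 with SKF+Aβ, 894 and 961 with SKF+Aβ+CSP, 1107 and 919 with SKF+Aβ+CSP‐TTK21 and 855 and 681 with CSP‐TTK21 alone. The libraries of its groups overlapped in all 7 comparisons, with the highest value in SKF+Aβ+CSP‐TTK21 and the lowest in CSP‐TTK21 alone. Itpr3, known mainly from epithelial cells, had 31 to 66 counts per library, from 4.14 to 8.94 CPM.

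**Figure D3:**
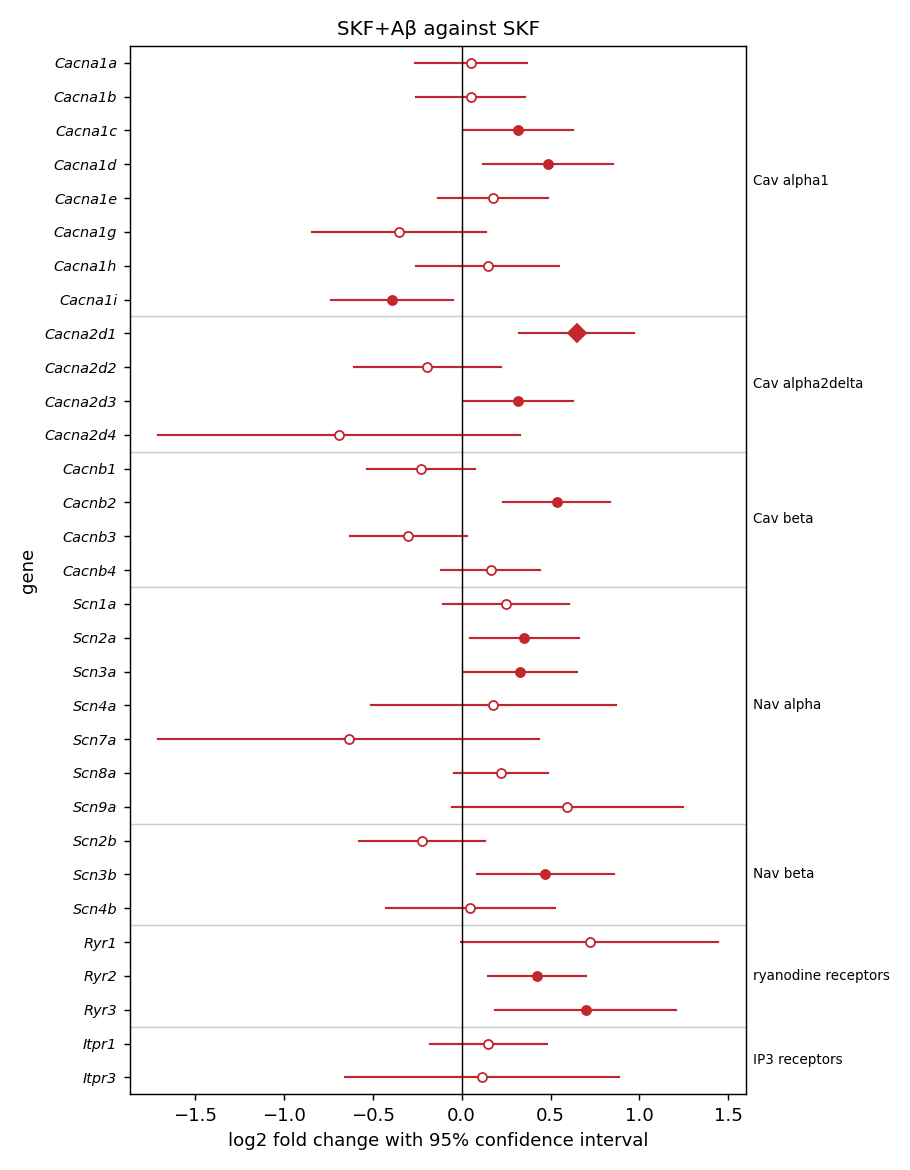
Log2 fold change of 31 of the 33 tested channel genes in SKF+Aβ against SKF (horizontal axis), by gene in order of role (vertical axis). The 95% confidence intervals were computed from the fold change and F statistic of edgeR's test. The diamond is the gene called at an adjusted p under 0.05, Cacna2d1, filled circles have an unadjusted p under 0.05 and open circles do not.

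For SKF+Aβ against SKF, the libraries of the groups did not overlap for 14 channel genes with higher values in SKF+Aβ (25.2% of all genes) and for 5 with lower values (24.3%). As shares of the 33 genes tested these are 42.4% and 15.2%. The confidence interval lay within 1 on the log2 scale in either direction for 27 of the 33 genes, with a median width of 0.34 to each side. Marker sums differed too. The 8 oligodendrocyte markers summed to 16687 and 24666 CPM in SKF and 16115 and 11308 in SKF+Aβ, and 5 of 6 markers of oligodendrocyte precursors to 248 and 356 and 219 and 224. The 6 dentate granule markers, none of which was at 0, summed to 450.1 and 469 in SKF and 571 and 549 in SKF+Aβ. The sum for meninges and choroid plexus was also higher without overlap, at up to 15.2 CPM for SKF and 17.3 and 30 for SKF+Aβ. The sums of neuronal and CA1 markers overlapped between these groups. The part of these markers, and of the lower mitochondrial share in SKF, in the channel gene values was not tested.

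Adding the empty nanosphere to SKF+Aβ gave no call by edgeR. For SKF+Aβ+CSP against SKF+Aβ, 0 channel genes and 0% of all genes passed the adjusted threshold, and at an unadjusted p under 0.05 there were 0 channel genes against 2.18% of all genes. With DESeq2, no channel gene passed (0.00665% of all genes). Against SKF, SKF+Aβ+CSP gave 0 calls (0.0200% of all genes) and 7 genes at an unadjusted p under 0.05 (19.3%). Cacna1d, Cacna2d1, Cacnb2, Ryr2 and Ryr3 were among those with the higher mean (10.3% of all genes), and Cacnb3 was among those with the lower (9.03%). DESeq2 called 1 of 27, Cacna2d1, with an adjusted p of 0.0365, against 4.62% of all genes it gave one. Marker sums moved here as well. Neuronal markers were lower for SKF+Aβ+CSP (9414 and 9047 CPM) than for SKF (9684 and 9491), as were CA3 and CA2 markers (401 and 426 against 434 and 463), and dentate granule markers were higher (492 and 529.6 against 450.1 and 469). Compared with SKF+Aβ, the sums of oligodendrocyte (17888 and 18346 against 16115 and 11308), precursor and endothelial markers were higher without overlap, and those of dentate granule and of CA3 and CA2 markers were lower. Their part in the channel gene values was not tested.

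SKF+Aβ+CSP‐TTK21 was compared with SKF+Aβ and with the empty nanosphere to ask what the loaded particle changed in the presence of Aβ. In each comparison 24 of the 33 channel genes had the lower mean (72.7%), against 48.1% and 48.9% of all genes, and edgeR called no gene in either. The empty nanosphere against SKF+Aβ also gave a lower mean for 24 (72.7%, against 51.6% of all genes). Against SKF+Aβ, 0 channel genes and 0% of all genes passed, and 6 channel genes reached an unadjusted p under 0.05 (6.59% of all genes). All 6 had the lower mean in SKF+Aβ+CSP‐TTK21 (4.06%), and they were Ryr1, Cacna1d, Cacnb2, Ryr3, Ryr2 and Cacna1c, that is, all ryanodine receptors, both L-type pores of neurons and 1 β subunit. The fold change of Cacnb2 in this comparison was -0.41 (SE 0.14, adjusted p = 0.746).

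Against SKF+Aβ+CSP, which differs by TTK21 itself, 0 channel genes and 0% of all genes passed. At an unadjusted p under 0.05 there were 5 (8.78%), Cacna1d, Cacna1g, Ryr1, Cacnb2 and Itpr3, and all had the lower mean with TTK21 (5.61%). The fold change of Cacnb2 was -0.35 (SE 0.14, adjusted p = 0.556), or -0.22 without SKF+Aβ+CSP‐TTK21 replicate 2. Both comparisons use the same SKF+Aβ+CSP‐TTK21 libraries and are not independent. With DESeq2, no channel gene passed in either, against 0% of all genes in the former and 0.177% in the latter.

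**Figure D4:**
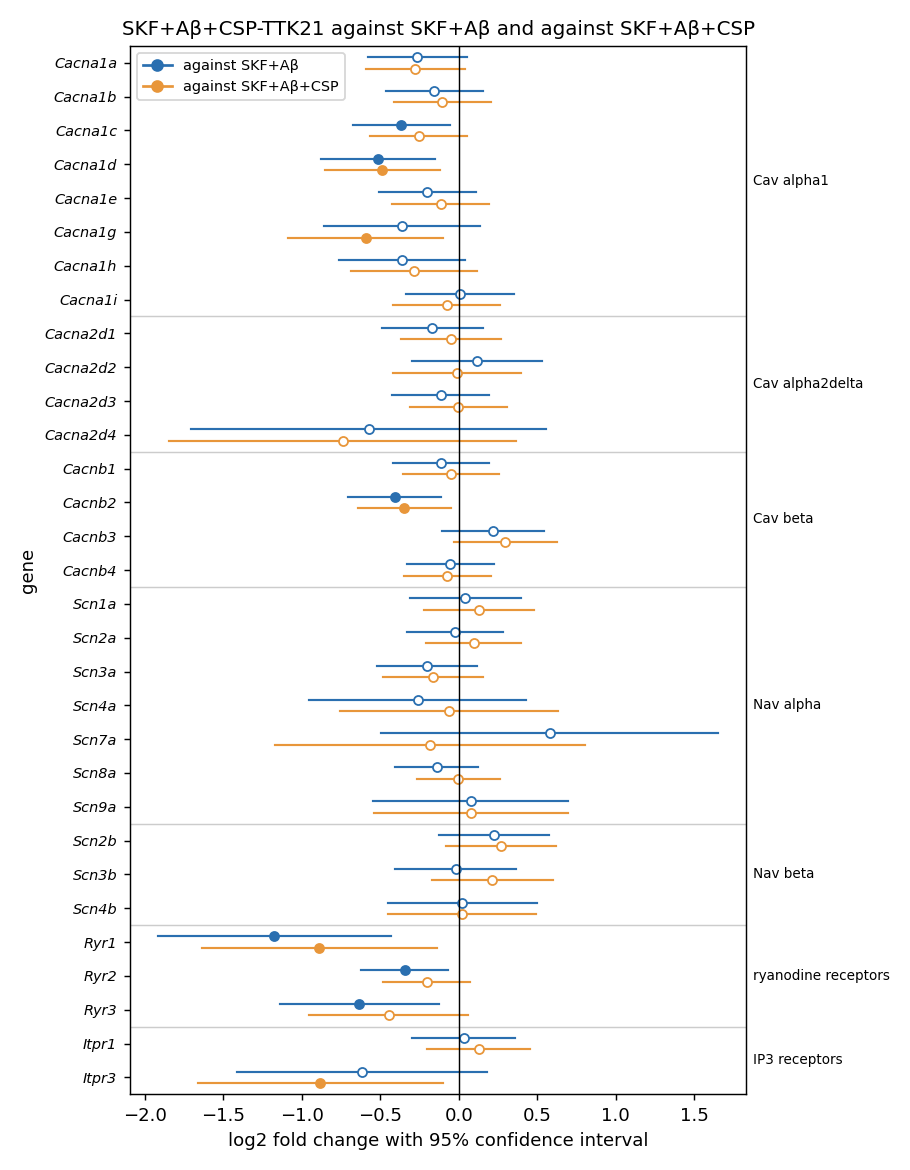
Log2 fold change of 31 of the 33 tested channel genes in SKF+Aβ+CSP‐TTK21 against SKF+Aβ (blue) and against SKF+Aβ+CSP (orange) on the horizontal axis, by gene on the vertical axis, with 95% confidence intervals. Filled circles have an unadjusted p under 0.05, and all of these lie below 0. No gene passed the adjusted threshold.

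Groups did not overlap for 15 channel genes with lower values in SKF+Aβ+CSP‐TTK21 than in SKF+Aβ (45.5%, against 17.7% of all genes), and for 2 with higher values (6.06%, against 18.2%). Against SKF+Aβ+CSP these were 12 with lower values (36.4%, against 22.8%) and 3 with higher values (9.09%, against 23.5%). The median log2 fold change was -0.16 over the channel genes and 0.01 over all genes in the former, and -0.08 and 0.01 in the latter. For SKF+Aβ+CSP against SKF+Aβ it was -0.07 and -0.01. The 15 included all 3 ryanodine receptors, Cacna1c, Cacna1d and Cacnb2. The 3 with higher values than in SKF+Aβ+CSP were Scn1a, Scn2a and Scn2b. Scn3b and Scn4b also had the higher mean there (51.1% of all genes), but their libraries overlapped. For Scn4b the means were 21.6 CPM with TTK21 and 21.3 CPM with the empty particle. Over the same libraries, neuronal markers summed to 8652 and 10481 CPM with SKF+Aβ, 9414 and 9047 with SKF+Aβ+CSP and 9938 and 10848 with SKF+Aβ+CSP‐TTK21, with both TTK21 libraries above both of the empty particle. Endothelial markers, 6 of 8 with Cldn5 under the filter, summed to 128 and 103, 177 and 140.4 and 75.6 and 77 CPM, and the 8 astrocyte markers to 4056 and 3849.6, 3894 and 3611 and 4713 and 4843. Against SKF+Aβ+CSP, the sums of interneuron markers (389 and 434 against 495 and 502 with TTK21), dentate granule, CA3 and CA2, oligodendrocyte precursor (263 and 258 against 336 and 288) and microglial markers were also higher without overlap, and that of mural cell markers was lower. Against SKF+Aβ, the dentate granule sum was lower (571 and 549 against 539.6 and 538) and the precursor sum higher (219 and 224 against the values above). Their part in these values was not tested.

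Against SKF, SKF+Aβ+CSP‐TTK21 gave 0 called channel genes (0.00665% of all genes) and 8 at an unadjusted p under 0.05 (19.6%). Cacna2d1, Scn2a, Scn3b and Scn9a were higher among these (10.8% of all genes), and Cacna1g, Cacna1i, Cacna2d4 and Cacnb1 were lower (8.78%). DESeq2 called 1 of 26, Cacna1g, with an adjusted p of 0.0474, against 4.58% of all genes it gave one. All 8 tested calcium channel pores had a lower mean than in SKF, as did 51.3% of all genes. Marker sums moved in the same comparison. Endothelial markers summed to 167 and 90.8 CPM in SKF and 75.6 and 77 in SKF+Aβ+CSP‐TTK21, and the 8 mural cell markers to 96.6 and 78.5 and 73.1 and 71.4. Neuronal markers, at 9684 and 9491 CPM in SKF, dentate granule markers (450.1 and 469 against 539.6 and 538 with TTK21) and interneuron markers (394 and 394 against 495 and 502) were higher in both SKF+Aβ+CSP‐TTK21 libraries, as were those of CA3 and CA2 and of meninges and choroid plexus. Their part in the channel gene values was not tested. The interval of the difference from SKF stayed within 1 on the log2 scale for 26 of the 33 genes.

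CSP‐TTK21 alone, against SKF, gave 0 called channel genes and 0% of all genes, and 4 genes at an unadjusted p under 0.05 (7.78%). Scn4b and Cacna1a were among those with the lower mean in CSP‐TTK21 alone (3.63% of all genes), and Cacna2d1 had the higher (4.16%). DESeq2 called no channel gene here (0.0200% of all genes). In the same comparison, oligodendrocyte markers summed to 16687 and 24666 CPM for SKF and 15742 and 15445 for CSP‐TTK21 alone, and CA3 and CA2 markers to 434 and 463 and 380.1 and 425. Dentate granule (450.1 and 469 against 472 and 480.3), interneuron (394 and 394 against 415 and 459) and meningeal sums were higher in CSP‐TTK21 alone without overlap. The part of these markers was not tested. As SKF is absent from one group and CSP‐TTK21 from the other, their contributions cannot be told apart.

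Genes that work with these channels were examined as 5 lists. By edgeR, none was called across the 5 groups in any list. In SKF+Aβ against SKF, 1 of 26 tested channel-binding proteins and 1 of 18 tested regulators of the store channels fell, and 0 of 13 leak and store-entry channels, 0 of 14 pumps and exchangers and 0 of 12 calcium buffers passed, against 2.08% of all genes called and 0.852% called lower. A single call in a list of this size is no result about the list. No listed gene passed in the other 6 comparisons.

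Stac2, an adaptor that binds L-type pores and slows their inactivation, had 46.6 and 28.8 CPM with SKF, 14.5 and 17.1 with SKF+Aβ, 23.7 and 18.8 with SKF+Aβ+CSP, 17.6 and 23.2 with SKF+Aβ+CSP‐TTK21 and 23.8 and 23.1 with CSP‐TTK21 alone. All libraries of the other groups were below both SKF libraries, which differed between themselves. Its log2 fold change in SKF+Aβ against SKF was -1.25 (SE 0.23, adjusted p = 0.0355) by edgeR's quasi-likelihood test. Jph4, a junctophilin that holds the endoplasmic reticulum close to the plasma membrane and so couples ryanodine receptors to calcium entry, had 233 and 252 CPM with SKF, 147 and 150.2 with SKF+Aβ, 155 and 136 with SKF+Aβ+CSP, 166 and 197 with SKF+Aβ+CSP‐TTK21 and 198 and 174 with CSP‐TTK21 alone. Both SKF libraries were the highest, and the fold change in SKF+Aβ was -0.71 (SE 0.13, adjusted p = 0.0355). Both calls depended on single libraries. They were lost without either SKF+Aβ library or either SKF+Aβ+CSP library and with only the 4 libraries compared, as well as without SKF replicate 1, and that of Jph4 also without SKF replicate 2. Without SKF+Aβ replicate 1 the adjusted p was at its highest, 0.148 for Stac2 and 0.147 for Jph4, and without SKF replicate 1 the fold change of Stac2 was -0.88.

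The other partner genes with the lowest p of each list gave no call by edgeR. Cacng7, a γ-type subunit that also acts on AMPA receptors, had 93.9 and 96.1 CPM in SKF and 67 and 64.2 in SKF+Aβ, with a fold change of -0.53 (SE 0.14, adjusted p = 0.0578). Micu3, a regulator of mitochondrial calcium uptake, had 40 and 55.3 CPM in SKF and 82.1 and 63 in SKF+Aβ. Atp2b1, a calcium pump of the plasma membrane, had 988 and 959 and 1503 and 1256 CPM in the same groups. For the rest, the 2 SKF and the 2 SKF+Aβ libraries had 1003 and 1206 and 1383 and 1355 CPM of Slc24a2, a sodium, calcium and potassium exchanger, and 66.8 and 64.6 and 55 and 49.5 CPM of Itpkb, a kinase that uses up IP3. Orai2, a store-entry channel, had 96.6 and 108 and 95.4 and 89.1 CPM. Hpca, the neuronal calcium sensor hippocalcin, overlapped between these groups with 165 and 189 and 172 and 169.6 CPM, and Casq1, a buffer of the calcium stores, had 6.08 and 8.01 and 13.8 and 4.17 CPM.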

How the data were processed

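RNA from CA1 of rat hippocampal slices was measured in 5 groups of 2 libraries. The authors deposited counts per rat Ensembl gene as whole numbers, without normalization and without pooling of replicates, in a table of 32545 genes. Their methods describe a stranded kit with depletion of ribosomal RNA, Trim Galore, removal of duplicates with Samtools, TopHat2 and Cufflinks, and name the rat assembly in one place and a mouse one in another. The submitters' processing notes name STAR, RSEM, HISAT2, Salmon and the human build GRCh38. Which program counted the reads, over which annotation and on which strand, is not given in the sources used here, so genes that overlap or have near copies, such as neighbouring Scn genes, are uncertain.

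Groups and replicate numbers came from the sample labels. In R 4.3.3, filterByExpr by group kept 15032 genes, and edgeR 4.0.16 fitted a mean per group to all 10 libraries with TMM factors, one quasi-likelihood fit and Benjamini-Hochberg adjustment over all genes. The common biological coefficient of variation was 0.136. Calls were made at an adjusted p under 0.05 in 7 comparisons and across the groups. An exact permutation test of 2 against 2 libraries cannot go below a two-sided p of 0.333, so it was not used. Alternatives were another call rule, RLE factors, no filter or at least 10 counts in every library, DESeq2 1.42.0, limma 3.58.1 on log2 CPM, the 4 libraries compared, the replicate number as a block and each library left out. The script was tested on simulated counts.

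Some genes are not reported here by name, though counts over the channel genes include them. The channel genes and all gene lists were chosen with earlier results of these data known. Values per library were given for each member called, the 12 with the lowest p across the groups and the one with the highest mean CPM of each subfamily, and fold changes for those where the unadjusted p was under 0.05. Of each partner list the 2 genes with the lowest p were named. Promoter windows came from RefSeq (GRCr8). Removal of duplicates lowers the counts of abundant transcripts more than those of rare ones, and depth here limits genes of low level.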

Additional observations from a re-analysis of the deposited data

How the results depend on the processing

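Of the channel gene fold changes with an unadjusted p under 0.05 and those of Stac2 and Jph4, 41 were recomputed under up to 17 alternatives each, and 0 changed sign. Of the 694 values, 656 kept their side of the threshold, 22 lost the call and 16 gained one. The losses were of Cacna2d1 (9), Jph4 (7) and Stac2 (6) in SKF+Aβ against SKF. For Cacna2d1, the log2 fold change lay between 0.52 and 0.73 with an adjusted p between 0.00282 and 0.203. In that comparison 1 channel gene was called, with 4 when no filter on low counts was used, 4 with DESeq2 (Cacna2d1, Cacnb2, Ryr2 and Ryr3, against 8.93% of all genes it gave an adjusted p), 0 with only the 4 libraries compared, 0 with a log2 fold change beyond 1.5 and 11 at an unadjusted p under 0.05. Leaving out 1 library gave 0 to 1, and the call was kept without either library of SKF+Aβ+CSP‐TTK21. Across the 5 groups, 0 were called, against 7 with no filter, 3 with DESeq2 (4.89% of all genes it gave an adjusted p) and 8 unadjusted. In SKF+Aβ+CSP against SKF, 0 became 2 with no filter, 1 with DESeq2 (4.62%) and 7 unadjusted. In SKF+Aβ+CSP‐TTK21 against SKF, 0 became 1 with no filter, 1 with DESeq2 (4.58%) and 8 unadjusted, and leaving out 1 library gave 0 to 1, the 1 being Cacna1g without SKF replicate 2. Against SKF+Aβ, 0 became 2 with no filter and 6 unadjusted, and leaving out 1 library gave 0 to 1, the 1 being Ryr1 without SKF+Aβ replicate 2. Against SKF+Aβ+CSP, 0 became 2 with no filter and 5 unadjusted, and in CSP‐TTK21 alone against SKF, 0 became 4 unadjusted. Without the filter 1401 genes passed across the groups, against 1 with it, and 1311 in SKF+Aβ against SKF, against 312. The cause was not tested. A replicate block changed no call of a channel gene, with 1 in SKF+Aβ against SKF and 0 in the others, and gave 0.64 for Cacna2d1 with an adjusted p of 0.0393 by edgeR. Deviations of same-numbered libraries correlated between -0.07 and 0.24, over 0.1 in 4 of 10 pairs of groups, which does not show that the numbers pair the libraries. Whether they do is not given in the sources used here. Members with under 40 counts in each library, among them Cacna2d4, Scn4a and Scn7a, allow no statement on small differences.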
